A study of Mus musculus with 15 samples.

Results

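The conjugating enzymes described here are the glutathione S-transferases (GST), the UDP-glucuronosyltransferases (UGT) and the cytosolic sulfotransferases (SULT). They were chosen by name: a protein-coding gene of the count table was a member when its symbol began with Gst and a class letter, with Ugt1, Ugt2 or Ugt3, or with Sult and a digit. The rule found 64 genes among the 46078 in the table, 22 Gst, 21 Ugt and 21 Sult, and left out 7 pseudogenes with names of the same form. The RNA came from podocyte fractions, cells pulled from digested kidney cortex with magnetic beads and antibodies against nephrin, of male C57BL/6J mice. Young mice were 4 months old and uninjected (n = 5). Aged mice were 21 months old and received weekly intraperitoneal injections at 12 mg/kg for 8 weeks, either of the control antibody 2A3 (aged IgG2a-injected, n = 4) or of the PD-1 blocking antibody RMP1-14 (aged aPD1ab-injected, n = 4). Each library came from 1 mouse. The titles of the aPD1ab samples state 47 days. Age and injection therefore differed together between the young and each aged group. The labels list 5 mice in each group, and 2 further columns of the table could not be tied to a group and were not used.

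These enzymes make lipophilic compounds soluble for export. GSTs join glutathione to electrophiles such as lipid peroxidation products, UGTs transfer a sugar from a UDP-sugar donor to steroids, bile acids, phenols and drugs, and SULTs transfer a sulfate from the donor PAPS to phenols, catechols and sterols. In the kidney, conjugation is best known in the proximal tubule, which also takes up, trims and secretes the conjugates. Podocytes are not known as a main site of it.

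The libraries held between 19912969 and 32717100 counted reads, a range over which 3 reads corresponded to between 0.0917 and 0.151 CPM (read counts relative to the scaled size of the library). All 10 podocyte markers examined were above 0 in every library. All 14 proximal tubule markers were too, so nephrin selection left RNA of other cells in every library. The podocyte marker sum was between 1029 and 1603 CPM in young mice, between 587 and 767 with IgG2a and between 339.8 and 949 with aPD1ab. The proximal tubule marker sum was between 10113 and 15237 CPM in young mice. It was 7514 CPM in IgG2a replicate 1 and only 1343 to 2229 CPM in the other IgG2a libraries, and it was 21948 CPM in aPD1ab replicate 2 and 7700.4 to 8699 CPM in the other aPD1ab libraries. IgG2a replicate 1 thus stood apart from its group, and each comparison that uses it is given with and without it. That library was set apart on values of these same data, so results without it are conditional on that choice. In bulk RNA, fewer cells of a type and less RNA per cell cannot be told apart.

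Of the 64 members, 14 had no read in any library, namely 5 Ugt and 9 Sult genes, and 19 in all never exceeded 3 reads in a library. All 22 Gst genes had reads. A mean of at least 1 CPM over the 13 libraries was reached by 30 members (17 Gst, 8 Ugt and 5 Sult), and up to 4 of the most abundant of each subfamily, 28 in all, are described by name. The expressed set was therefore broad among the GSTs and narrow among the SULTs, where the liver-type Sult2a1 and the estrogen sulfotransferase Sult1e1 were both at 0. Per kilobase of exon, the highest means over all libraries were those of Ugt2b38 (118 CPM per kb) and Ugt3a2 (111 CPM per kb). Gstm1 followed with 79.4, Gsta2 with 65.4, Sult1d1 with 58.5 and Gstt1 with 58.3 CPM per kb. In young mice alone Ugt2b38 (180.0 CPM per kb) and Ugt3a2 (158 CPM per kb) were each above Gstm1 (72.0) and Sult1d1 (71.0 CPM per kb), while in aged IgG2a-injected mice the highest of these means was that of Gstm1 (53.2 CPM per kb), ahead of Gstt1 (47.9), Ugt3a2 (43.4) and Ugt2b38 (38.0 CPM per kb). The spread over the 4 IgG2a libraries was nearly as large as the mean for both UGTs, at 135 ± 125 CPM (SD, n = 4) for Ugt3a2 and 71.8 ± 59.2 CPM (SD, n = 4) for Ugt2b38, so this order is uncertain.

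**Figure D1:**
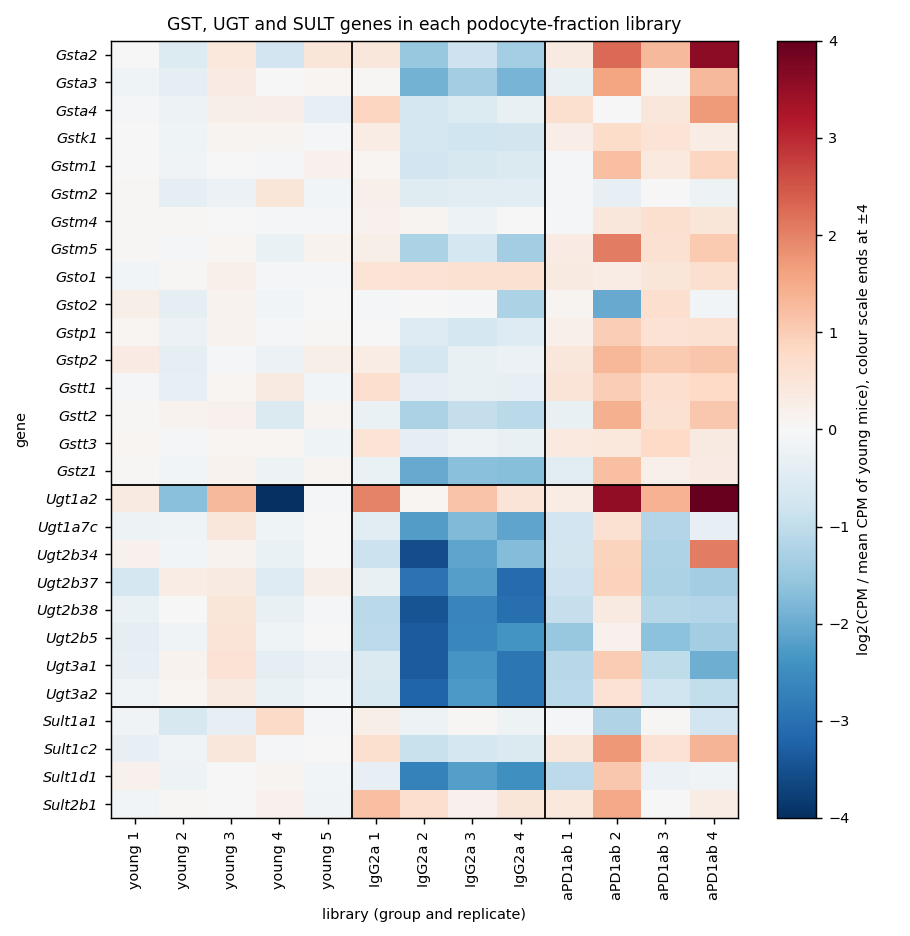
Level of the 28 named genes (rows, by family) in each of the 13 libraries (columns, by group and replicate), as log2 of CPM over the mean CPM of the young mice, with red for higher and blue for lower. The Ugt2, Ugt3 and Sult1d1 rows are blue in IgG2a replicates 2 to 4, with Ugt3a2 at 53.6 to 99.5 CPM there against 405.1 to 630.1 CPM in young mice, and most Gst rows are red with aPD1ab.

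The members lie on 12 chromosomes (GRCm38), many of them in clusters. Some stand alone, such as Gstz1 on chromosome 12 and Sult5a1 on chromosome 8. The 10 Ugt2 genes stand together on chromosome 5 (86889767 to 87490871), next to Sult1b1, Sult1d1 and Sult1e1 (87513339 to 87591594). The 2 Ugt3 genes share a locus on chromosome 15 (9276888 to 9370955), the 7 Gstm genes one on chromosome 3 (107895821 to 108044894) and the 9 Ugt1a genes one on chromosome 1 (88055388 to 88220002). Some genes of a cluster are near copies, so that their reads are not independent, and others are not. Of the 50-base words of their transcripts, Sult1d1, Gstt1 and Gsto1 shared 0% with other genes, Ugt2b34 1.44% and Ugt3a2 7.01%. Of the 50-base words of the Gsta2 transcripts, 49.8% also occur in other genes, 36.0% in Gsta1. The share was 63.7% for Ugt1a2, 54.3% for Gstp2, 53.7% for Ugt1a7c, 41.7% for Ugt2b5, 37.4% for Ugt2b38 and 33.7% for Gstp1. The Ugt1a genes also share their last exons, so that only 45.4% of the exon bases of Ugt1a7c and 40.7% of those of Ugt1a2 belong to no other gene. How reads in shared exons were assigned is not stated in the sources used here, and levels of these genes relative to their copies are uncertain.

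Promoters of the members were searched for the letters of transcription factor motifs on both strands, in sequences from RefSeq (GRCm38.p6), which gave a window of 250 bases before to 50 bases after the start for 56 of the 64 members and 25 of the 28 named ones. The antioxidant response element, bound by NRF2, was searched as TGACNNNGC. It occurred in 3 of the 56 members (Gsta3, Gstm5 and Gstm7) and in 14.0% of 27025 genes. The HNF4 motif CAAAGTCCA was in Sult1b1 and in 0.555% of genes, and the dioxin receptor core TGCGTG in Sult1b1 and Sult1d1 and in 9.59% of genes. A match is a description of the letters and not a site of binding. The 250 bases upstream of Gsta3 (chr1:21240335-21240584, plus strand) and Gstm5 (chr3:107895604-107895853, plus strand) follow, each 5′ to 3′ on the strand of its gene, with the antioxidant response element match in capitals. They are shown because they are the named GSTs that hold it.
Gsta3: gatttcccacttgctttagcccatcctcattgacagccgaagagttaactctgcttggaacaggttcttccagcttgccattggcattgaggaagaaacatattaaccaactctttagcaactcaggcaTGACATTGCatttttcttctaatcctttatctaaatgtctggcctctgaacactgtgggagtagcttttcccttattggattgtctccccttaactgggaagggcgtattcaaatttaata
Gstm5: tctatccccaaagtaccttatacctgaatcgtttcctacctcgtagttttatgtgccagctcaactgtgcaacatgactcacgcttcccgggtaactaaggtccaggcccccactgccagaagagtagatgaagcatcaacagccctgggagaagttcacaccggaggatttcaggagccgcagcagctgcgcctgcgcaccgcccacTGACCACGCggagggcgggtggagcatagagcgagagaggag
Gsta3 and Gstm5 were among 14 of 20 Gst members that were higher with aPD1ab than with IgG2a once IgG2a replicate 1 was left out. In that fit 17.1% of all genes were higher. A part of the motif in these differences was not tested.

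To ask how the conjugating enzymes differed with age, aged IgG2a-injected mice were compared with young mice. UGT transcripts were lower in the aged mice, by 2.61- to 4.59-fold for those that passed the test, together with Sult1d1 and the GSTs Gstz1 and Gstt2, while Gsto1 was higher. Of the 37 members tested by edgeR, 9 were lower and 1 was higher at an adjusted p under 0.05, against 8.38% lower and 9.05% higher of all 15953 genes tested. By family, 6 of 10 Ugt, 1 of 7 Sult and 2 of 20 Gst members were lower. The median log2 fold change was -1.72 over the Ugt members, 0.04 over the Sult members and -0.22 over the Gst members, and 0.04 over all genes tested.

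Ugt3a2 (ENSMUSG00000049152), of a branch whose human members use UDP-sugars other than UDP-glucuronate, was at 443, 522, 630.1, 405.1 and 453 CPM in the 5 young mice. It was at 319.8, 53.6, 99.5 and 65.7 CPM in the 4 IgG2a-injected mice. Every aged library was below every young one, and replicate 1 was the highest of its group. The log2 fold change was -1.82 (SE 0.49, edgeR adjusted p = 0.0333), and -2.70 (SE 0.23, edgeR adjusted p = 1.61e-05) without replicate 1. Its neighbour Ugt3a1 fell by 1.80 on the log2 scale (SE 0.52, edgeR adjusted p = 0.0406), from 80.2 ± 24.3 CPM (SD, n = 5) to 22.1 ± 21.6 CPM (SD, n = 4), and by 2.76 without replicate 1.

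Among the Ugt2 genes, which glucuronidate steroids and bile acids, Ugt2b38 (ENSMUSG00000061906) was at 286, 336, 476, 279 and 325 CPM in young mice. The IgG2a-injected mice had 159.5, 31.3, 54.4 and 41.9 CPM. The groups did not overlap, and the log2 fold change of -2.20 (SE 0.45, edgeR adjusted p = 0.0168) was the largest fall among members tested with all libraries. Without replicate 1 it was -2.95 (SE 0.24, edgeR adjusted p = 1.49e-05). Ugt2b5 fell by 2.00 and Ugt2b34 by 1.71 on the log2 scale, and by 2.69 and 2.28 without that replicate. Ugt2b37 averaged 24.3 ± 7.70 CPM (SD, n = 5) in young and 7.75 ± 8.03 CPM (SD, n = 4) in IgG2a-injected mice and did not pass (log2 fold change -1.57, SE 0.54, edgeR adjusted p = 0.0704), but passed without replicate 1 (-2.63, SE 0.34, edgeR adjusted p = 0.000314). Ugt1a7c (ENSMUSG00000090124), the abundant phenol-glucuronidating member of the Ugt1a locus, was at 89.6, 91.4, 141, 91.9 and 105 CPM in young mice and at 76.4, 22.1, 30.7 and 24.2 CPM with IgG2a. It too did not overlap and fell by 1.38 on the log2 scale (SE 0.35, edgeR adjusted p = 0.0291), or by 1.96 without replicate 1.

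Sult1d1 (ENSMUSG00000029273), which sulfates catechols, also had replicate 1 above the other aged libraries. It was at 197, 153, 175, 187 and 161 CPM in young mice and at 139.9, 26.6, 37.8 and 31.8 CPM with IgG2a. The groups did not overlap, and the log2 fold change was -1.52 (SE 0.45, edgeR adjusted p = 0.0445). Without replicate 1 it was -2.39 (SE 0.14, edgeR adjusted p = 3.27e-06). Sult1b1, a thyroid hormone and phenol sulfotransferase, was not called with all libraries (log2 fold change -1.26, edgeR adjusted p = 0.186) and was -2.10 (edgeR adjusted p = 0.0261) without replicate 1. It averaged 0.964 CPM in young mice and 0.220 CPM in IgG2a replicates 2 to 4, where 3 reads were 0.113 to 0.146 CPM. Sult1a1, the main phenol sulfotransferase, averaged 24.4 ± 9.96 CPM (SD, n = 5) in young and 24.1 ± 3.60 CPM (SD, n = 4) in IgG2a-injected mice, and Sult1c2 at 37.7 ± 8.17 and 32.2 ± 18.3 CPM. Without replicate 1 Sult1c2 was lower (log2 fold change -0.66, edgeR adjusted p = 0.00798). Sult2b1, which sulfates cholesterol, had higher values in every aged library (1.08 to 2.17 CPM) than in any young one (0.858 to 1.07 CPM), at an edgeR adjusted p of 0.0627.

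The GSTs were spread more widely. Gstz1 (ENSMUSG00000021033), the maleylacetoacetate isomerase of tyrosine breakdown, was at 83.8, 75.4, 89.9, 71.9 and 88.3 CPM in young mice and at 68.8, 20.1, 25.8 and 24.9 CPM with IgG2a. It fell by 1.17 on the log2 scale (SE 0.32, edgeR adjusted p = 0.0348) without overlap, or by 1.74 without replicate 1. The theta class gene Gstt2 fell by 0.78 (edgeR adjusted p = 0.0369), with overlap. Gsto1 (ENSMUSG00000025068), the omega class enzyme that reduces dehydroascorbate, was at 29.7, 33.2, 36.7, 30.3 and 30.8 CPM in young mice. It was at 46.5, 47.6, 48.8 and 48.6 CPM with IgG2a. Here replicate 1 was like its group, and Gsto1 rose by 0.64 on the log2 scale (SE 0.09, edgeR adjusted p = 0.00515). With libraries scaled by their totals alone, the median of all genes shifted to -0.38, Gsto1 stood at 0.21 (edgeR adjusted p = 0.263), and the call was lost; the genes called were then 331 higher and 3380 lower, against 1443 and 1337 with TMM. Over the whole list, 8 members (21.6%) were lower and 2 (5.41%, Gsto1 and Sult2b1) higher without overlap of groups, against 9.74% and 4.75% of all genes. Past 2-fold as well as the test, 8 members were lower and 0 higher, against 4.59% and 3.89% of all genes.

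Without IgG2a replicate 1, 22 of 37 members were lower and Gsto1 was the 1 higher, against 23.5% lower and 22.1% higher of all 16216 genes. They were 9 of 10 Ugt, 10 of 20 Gst and 3 of 7 Sult members. Gsta3 (log2 fold change -1.64), Gsta2 (-1.15), Gstm5 (-1.03), Gstk1 (-0.70), Gstm1 (-0.60), Gstp1 (-0.51) and Sult1c2 (-0.66) were among those added. The count of lower members also rested on every other library of the comparison. Leaving out any one of those, the young ones included, left between 0 (without IgG2a replicate 3) and 4 (without young replicate 4), and 2 or 3 in each remaining case. The share of all genes called lower fell in the same fits, to 1.80% without IgG2a replicate 3, 4.28% without young replicate 4 and 2.37% to 4.82% in the rest. Beside these members, 12 of 14 proximal tubule markers and 8 of 10 podocyte markers were lower and 6 of 6 macrophage markers were higher in IgG2a-injected than in young mice (14, 8 and 6 without replicate 1), and 1 podocyte marker was higher in both fits. The macrophage marker sum was 4379 to 6011 CPM in IgG2a replicates 2 to 4, 1843 CPM in replicate 1 and 1241 to 2206 CPM in young mice. With all libraries, 4 of 6 endothelial and 3 of 5 mesangial and smooth muscle markers were also lower. Higher were 2 of 4 B and plasma cell, 1 of 5 T cell and 1 of 4 collecting duct principal markers. The part of these cell types in the falls was not tested.

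**Figure D2:**
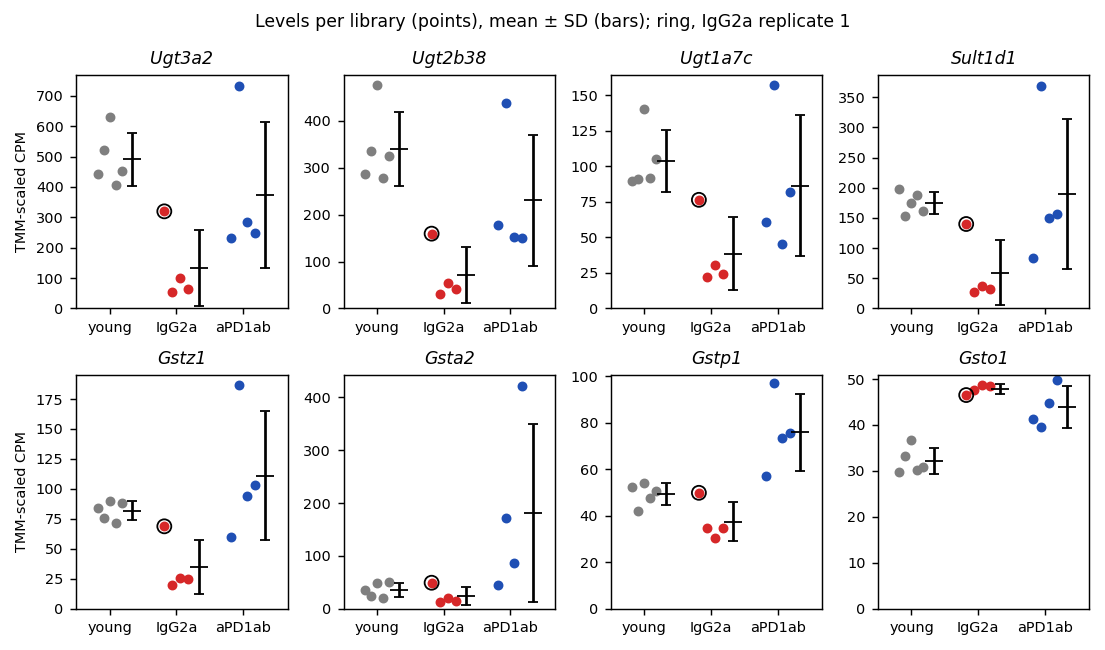
TMM-scaled CPM of 8 members (panels) in each library (points: grey, young, n = 5; red, IgG2a, n = 4; blue, aPD1ab, n = 4), with mean ± SD beside the points; the ring marks IgG2a replicate 1, and each axis starts at 0. Ugt3a2, Ugt2b38, Ugt1a7c, Sult1d1 and Gstz1 were low in IgG2a replicates 2 to 4 and high in aPD1ab replicate 2, Gsta2 reached 422 CPM in aPD1ab replicate 4, and Gsto1 was higher in every aged library than in any young one.

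To ask what PD-1 blockade changed in aged mice, aPD1ab-injected mice were compared with IgG2a-injected mice. With all libraries, 33 of 38 members had higher values with aPD1ab, but none passed the test: edgeR called 0 members and 0.0% of all 15530 genes in either direction, with 0.109 as the lowest adjusted p of a member. At an unadjusted p under 0.05, 23 members were higher and 0 lower, against 15.7% of all genes higher. Other tools called members from the same 8 libraries. DESeq2 called 18 members higher (8.95% of all genes), limma with sample quality weights 24 (20.9% of all genes) and a joint edgeR fit of all 3 groups 16 (11.4% of all genes), with 0 members lower in each (6.33%, 18.8% and 6.14% of all genes). The median log2 fold change of the members was 1.20, and -0.01 over all genes.

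Without IgG2a replicate 1, edgeR called 24 of 39 members higher and 0 lower, against 17.1% higher and 13.2% lower of all 15770 genes. Those called in this fit were 14 of 20 Gst, 8 of 11 Ugt and 2 of 8 Sult members, the last being Sult1c2 and Sult1d1. The library left out was chosen from these same data, so these edgeR calls are conditional on leaving it out. Leaving out any other single library gave 0 calls. Both this comparison and the one with young mice use the IgG2a libraries, so their opposite signs are not independent.

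Among the GSTs, Gsta2 of the alpha class, which detoxifies lipid peroxidation products, had the largest difference. Gsta2 (ENSMUSG00000057933) was at 49.2, 12.4, 20.3 and 13.8 CPM with IgG2a. It was at 45.9, 172, 87.3 and 422 CPM with aPD1ab. Replicate 4 of the aPD1ab group was far above the rest, and the groups overlapped only through IgG2a replicate 1. The log2 fold change was 2.93 (SE 0.73, edgeR adjusted p = 0.109) with all libraries and 3.53 (SE 0.76, edgeR adjusted p = 0.0141) without that replicate. Gsta3 averaged 18.1 ± 13.5 CPM (SD, n = 4) in IgG2a-injected mice and 68.6 ± 39.3 CPM (SD, n = 4) in aPD1ab-injected mice. The log2 difference was 1.93 (edgeR adjusted p = 0.109), or 2.57 (edgeR adjusted p = 0.0103) without replicate 1.

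Gstp1 (ENSMUSG00000060803), Gstp2 and Gstm5 were the 3 members that were higher without overlap of groups with all libraries. They were 7.89% of the 38 members tested, close to the 7.25% of all genes. Lower without overlap were 0 members, against 4.73% of all genes. Gstp1, of the pi class, was at 49.8, 34.8, 30.5 and 34.7 CPM with IgG2a and at 56.9, 97.1, 73.6 and 75.6 CPM with aPD1ab. Its log2 fold change was 1.01 (SE 0.21, edgeR adjusted p = 0.109), and 1.16 (SE 0.19, edgeR adjusted p = 0.00777) without replicate 1. The mu class gene Gstm5 was at 27.7, 9.68, 14.4 and 8.98 CPM with IgG2a and at 29.0, 97.3, 35.9 and 48.5 CPM with aPD1ab. The lowest aPD1ab library was thus only just above IgG2a replicate 1. Gsto1, called higher in the IgG2a group than in young mice, had 43.8 ± 4.56 CPM (SD, n = 4) with aPD1ab beside 47.9 ± 1.03 CPM (SD, n = 4) in the IgG2a group. Its log2 fold change of -0.14 (SE 0.11, edgeR adjusted p = 0.429) turned to 0.13 with library totals alone.

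Ugt3a2 was at 231, 734, 284 and 249.7 CPM with aPD1ab, and Ugt2b38 at 178, 438, 153 and 151 CPM. For both genes replicate 2 was well above the rest, and every aPD1ab library exceeded IgG2a replicates 2 to 4 but not all exceeded replicate 1. The log2 fold change of Ugt3a2 was 1.50 (SE 0.63, edgeR adjusted p = 0.165), and 2.35 (SE 0.49, edgeR adjusted p = 0.0126) without IgG2a replicate 1. Ugt2b34 was at 6.33, 0.981, 2.64 and 3.45 CPM with IgG2a and at 6.96, 21.3, 4.87 and 47.9 CPM with aPD1ab. In that gene, as in Gsta2, replicate 4 and not replicate 2 was the highest. Sult1d1 was at 83.7, 369.4, 149.6 and 157 CPM with aPD1ab, and its log2 fold change was 1.70 (edgeR adjusted p = 0.135), or 2.56 (edgeR adjusted p = 0.0109) once IgG2a replicate 1 was left out. Without that replicate 13 of 14 proximal tubule markers and 4 of 10 podocyte markers were also higher, and 1 podocyte marker and 6 of 6 macrophage markers lower; with it 0 of each were called. Of the other marker lists, 2 of 5 T cell markers were lower and 1 of 4 collecting duct principal markers was higher without IgG2a replicate 1. The part of these cell types in the member differences was not tested.

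**Figure D3:**
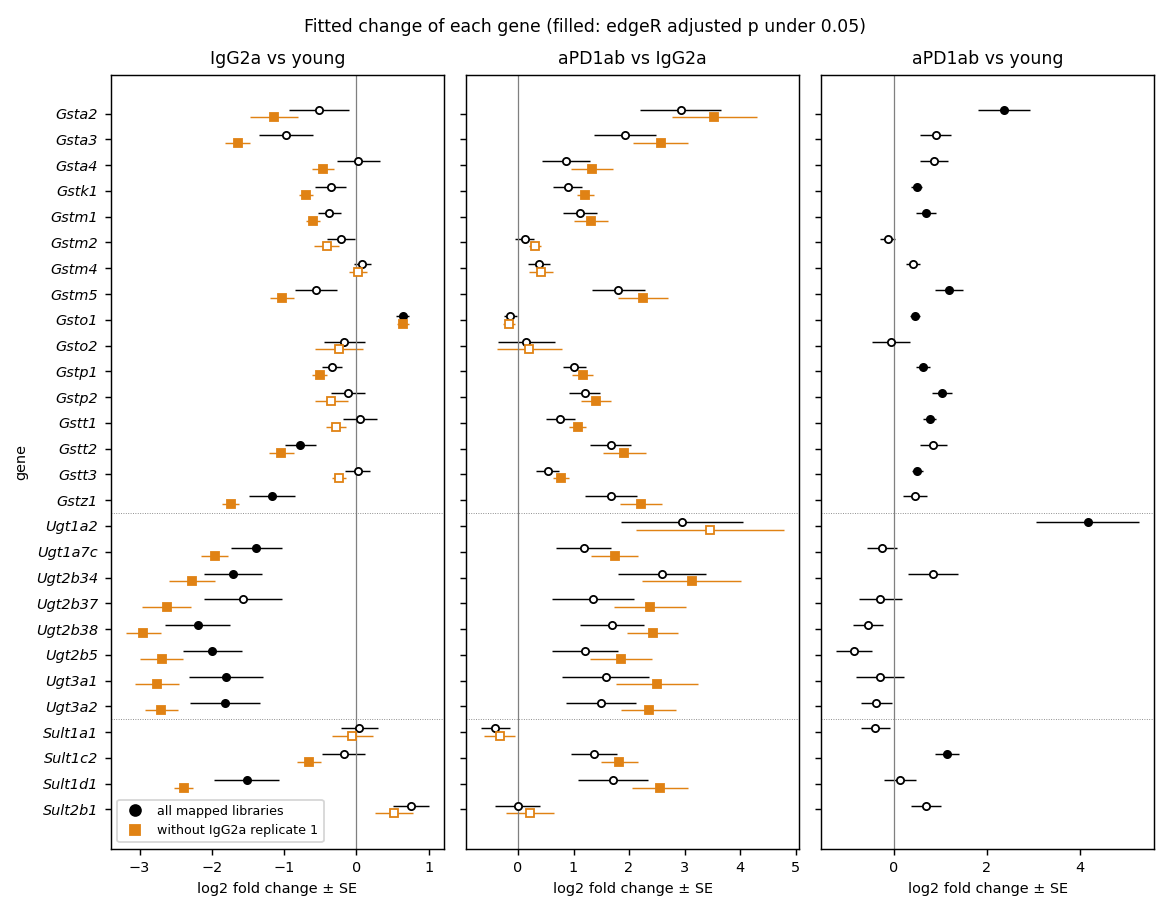
Fitted log2 fold change ± SE (edgeR, x axis) of each named gene (rows) in the 3 comparisons (panels), with all libraries (black circles) and without IgG2a replicate 1 (orange squares); filled symbols passed an adjusted p under 0.05, and a gene without a symbol was not tested in that fit. With all libraries the Ugt2 and Ugt3 genes lie furthest to the left in IgG2a vs young, no black symbol is filled in aPD1ab vs IgG2a, and 13 of 39 members tested, 11 of them Gst, were higher in aPD1ab vs young.

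Aged aPD1ab-injected and young mice were compared without any IgG2a library. GSTs were higher in the treated aged mice than in young mice, and with all libraries edgeR called no Ugt2 or Ugt3 gene, while limma with quality weights called 4 lower. Of 39 members, edgeR called 13 higher and 0 lower, against 12.4% higher and 9.97% lower of all 15986 genes. They were 11 of 20 Gst members (Gsta2, Gstk1, Gstm1, Gstm5, Gstm6, Gstm7, Gsto1, Gstp1, Gstp2, Gstt1 and Gstt3), Ugt1a2 and Sult1c2. At an unadjusted p under 0.05, 2 members and 2696 of all genes were lower, and DESeq2 called 18 members higher and 0 lower, against 15.3% and 13.6% of all genes. Past 2-fold as well as the test, 6 members were higher and 0 lower, against 2.1% and 2.69% of all genes. Without young replicate 4 edgeR called 8 higher, against 8.44% of all genes in that fit. With library totals alone 856 genes were higher and 1632 lower, against 1984 and 1594 with TMM, and 9 members were higher. The median log2 fold change was 0.81 over the Gst, -0.29 over the Ugt and 0.77 over the Sult members, and 0.02 over all genes.

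Gstt1 (ENSMUSG00000001663) was at 70.8, 58.2, 77.1, 94.3 and 67.8 CPM in young mice and at 106, 146, 118 and 127 CPM with aPD1ab. The groups did not overlap, and the log2 fold change was 0.77 (SE 0.15, edgeR adjusted p = 0.00728). Gstp2 averaged 3.90 ± 0.832 CPM (SD, n = 5) in young and 7.89 ± 1.87 CPM (SD, n = 4) in aPD1ab-injected mice (log2 fold change 1.03, SE 0.22, edgeR adjusted p = 0.00948), and Gstp1 rose by 0.63. Gstm5 rose by 1.19, Gstk1, which is found in mitochondria and peroxisomes, by 0.49, Gstt3 by 0.51 and Gsto1 by 0.46 on the log2 scale. Gstk1, Gstm5, Gsto1, Gstp1, Gstp2, Gstt1, Gstt3 and Sult2a3 made up the 8 members that were higher without overlap, against 11.3% of all genes. Sult2a3 itself did not pass the test (edgeR adjusted p = 0.0516) and averaged only 0.160 CPM in young and 0.647 CPM in aPD1ab-injected mice.

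Among the named members, the largest differences were those of Ugt1a2 and Gsta2, and both rested in part on aPD1ab replicate 4. Gsta2 was at 34.9, 24.3, 48.3, 21.1 and 49.7 CPM in young mice and rose by 2.37 (SE 0.56, edgeR adjusted p = 0.0155), or by 1.52 without aPD1ab replicate 4. Ugt1a2, a rarer member of the Ugt1a locus, was at 0 to 0.476 CPM in young mice and at 0.240, 2.28, 0.510 and 10.3 CPM with aPD1ab. Its log2 fold change of 4.18 (SE 1.11, edgeR adjusted p = 0.0238) was 2.43 (edgeR adjusted p = 0.10) without that replicate, and the edgeR adjusted p was also above 0.05, at 0.0519 to 0.0577, without young replicate 1, 2, 4 or 5. Sult1c2 was at 29.9, 33.9, 51.4, 35.4 and 38.2 CPM in young mice and at 51.1, 125, 56.8 and 97.0 CPM with aPD1ab, and rose by 1.14 (SE 0.26, edgeR adjusted p = 0.0147). Its lowest aPD1ab value was just under the highest young one, and its log2 fold change was 0.87 to 1.31 with 1 library left out.

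The edgeR calls of lower UGTs depended on aPD1ab replicate 2. That library had the highest proximal tubule marker sum, and the part of that sum was not tested. Without aPD1ab replicate 2, edgeR called 12 members higher and 6 lower than in young mice. Of all genes, 12.1% were higher and 10.5% lower in that fit. The 6 were UGTs: Ugt2b5 (log2 fold change -1.50), Ugt3a1 (-1.30), Ugt2b37 (-1.13), Ugt2b38 (-1.07), Ugt3a2 (-0.94) and Ugt1a7c (-0.71), with edgeR adjusted p between 0.00441 and 0.0367. With limma and sample quality weights, which down-weight libraries that stand apart, 4 of 39 members (Ugt2b38, Ugt2b5, Ugt3a1 and Ugt3a2) were called lower from all libraries, a share no higher than the 11.5% of all genes. With all libraries edgeR gave -0.55 (SE 0.33, adjusted p = 0.247) for Ugt2b38 and -0.38 (SE 0.33, adjusted p = 0.438) for Ugt3a2. In the same comparison 0 of 14 proximal tubule markers were called, 4 of 10 podocyte markers were lower, and 0 of 6 macrophage markers were called. Also lower were 3 of 5 mesangial and smooth muscle, 2 of 5 intercalated and 1 of 6 endothelial markers. Higher were 2 of 4 collecting duct principal, 2 of 4 B and plasma cell and 1 of 5 T cell markers.

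The members were then expressed per library as a percentage of its proximal tubule marker sum, as a description with no test. By this ratio the 6 named Ugt2 and Ugt3 genes of young and IgG2a-injected mice overlapped, except that Ugt2b38 was lower in IgG2a-injected mice without overlap when Kap was left out of the sum or the geometric mean was used. Ugt3a2 was at 3.71%, 3.85%, 4.14%, 4.01% and 3.62% of the marker sum in young mice. It was at 4.26%, 3.99%, 4.46% and 3.80% with IgG2a and at 3.005%, 3.34%, 3.32% and 2.87% with aPD1ab. The young and IgG2a values thus overlapped although the CPM did not, and all aPD1ab values lay below both groups. With Kap left out of the sum, or with the geometric mean, the aPD1ab values of Ugt3a2 overlapped those of both groups. Ugt2b38 was at 2.40% to 3.12% in young, 2.12% to 2.44% in IgG2a-injected and 1.74% to 2.32% in aPD1ab-injected mice, and IgG2a replicate 1 no longer stood above its group. Ugt2b5, too, was lower with aPD1ab than in young mice without overlap (0.0245% to 0.0337% against 0.0420% to 0.0617%).

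The GST ratios ordered the groups otherwise. Gstm1, a mu class enzyme of broad substrate range, was at 0.703% to 0.995% in young mice, 1.49% to 4.67% with IgG2a and 1.11% to 2.23% with aPD1ab. Gsto1 was at 0.241% to 0.299%, 0.619% to 3.55% and 0.180% to 0.573%. All 16 named Gst genes, 2 of 8 Ugt (Ugt1a2 and Ugt1a7c) and 2 of 4 Sult (Sult1c2 and Sult2b1) had higher ratios with IgG2a than in young mice without overlap, as did 72.8% of all genes, and 0 had lower ratios (0.094% of all genes). None of the 6 named Ugt2 and Ugt3 genes did. Between the aged groups, 3 Gst (Gstm2, Gsto1 and Gstt1), 3 Ugt (Ugt1a7c, Ugt2b5 and Ugt3a2) and 2 Sult (Sult1a1 and Sult2b1) had lower ratios with aPD1ab, against 37.8% of all genes, and 0 had higher ones (0.00644% of all genes). Between aPD1ab-injected and young mice, 7 Gst genes and 2 Sult genes (Sult1c2 and Sult2b1) had higher ratios and 3 Ugt genes (Ugt2b38, Ugt2b5 and Ugt3a2) lower ones, against 3.58% and 0.982% of all genes. The 7 were Gsta2, Gsta3, Gstm1, Gstm5, Gstp2, Gstt2 and Gstz1. The marker Kap was at 877 CPM in aPD1ab replicate 4 and at 3389.9 to 9396 CPM in the other aPD1ab libraries. With Kap left out of the sum, the counts against young mice were 6 Gst and 1 Sult higher and 2 Ugt (Ugt2b38 and Ugt2b5) lower. Of all 15986 genes, 397 were then higher and 202 lower. With the geometric mean of the 14 markers the member counts were 7 Gst, 1 Ugt and 2 Sult higher and 1 Ugt (Ugt2b5) lower. With that mean 578 of all genes were higher and 120 lower.

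**Figure D4:**
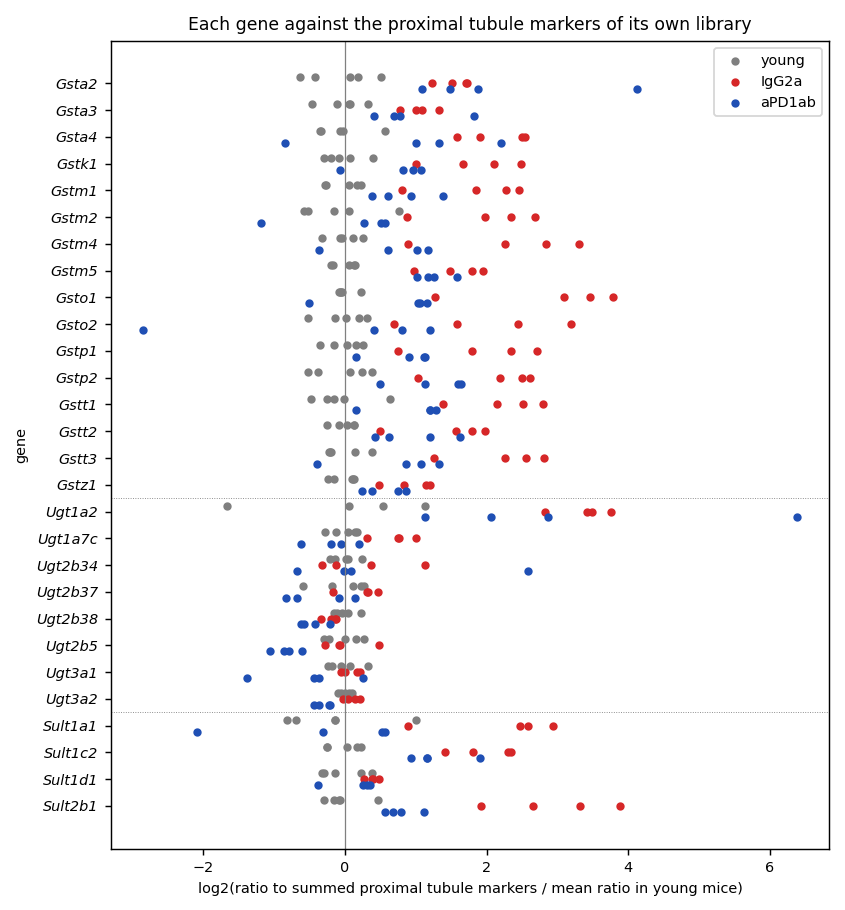
Each named gene (rows) as a ratio to the summed proximal tubule markers of the same library, on a log2 scale relative to the mean ratio of young mice (x axis); points are libraries, grey for young, red for IgG2a and blue for aPD1ab. Ugt3a2 stays near 0, between 2.87% and 4.46% of the marker sum in all 13 libraries, Ugt2b34 reaches 6.02 times the young mean ratio in aPD1ab replicate 4 and Ugt3a1 is at 0.385 of it there, while the Gst rows have their red points to the right of the grey ones.

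Genes that supply the donors, process the conjugates and control the enzymes were taken from a list of 47 genes, of which 46 were in the table and 45 were tested. Without IgG2a replicate 1, 28 were lower and 10 higher in IgG2a-injected than in young mice (23.5% and 22.1% of all genes). With all libraries 18 were lower and 8 higher, against 8.38% and 9.05% of all genes. Proximal tubule markers, of which 12 of 14 were lower with a median log2 fold change of -1.87, moved with these genes, and their part was not tested. All 6 genes listed for steps that make mercapturates from glutathione conjugates or deacetylate them were lower, with a median of -1.50, against 8.38% of all genes. Ggt1, the gamma-glutamyltransferase that starts the trimming, fell by 1.60 on the log2 scale, Dpep1 by 1.49, Anpep by 0.60, the N-acetyltransferase Nat8 by 1.51, and the aminoacylases Acy3 and Acy1 by 2.14 and 1.39. Of the glutathione supply genes, Gclm, the modifier subunit of the rate-limiting ligase, fell by 1.29, glutathione synthetase Gss by 1.19 and Ggct by 0.76, while the cystine transporter Slc7a11 rose by 2.28. Of the sulfate donor genes, the sulfate transporter Slc26a1 fell by 1.90 and the PAPS transporter Slc35b2 rose by 0.53. Of the UDP-glucuronate genes, UDP-glucose dehydrogenase Ugdh fell by 0.35 and the transporter Slc35d1 by 0.66.

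The other lists were divided. Among the exporters Abcc2 fell by 1.78 and Abcg2 by 1.51, both apical transporters of the proximal tubule, and Abcc1 rose by 0.31 and Abcc3 by 1.46. Of the GST-like enzymes outside the name rule, the prostaglandin D synthase Hpgds rose by 1.76 and Mgst2 by 1.53. Of the hydrolases listed, the beta-glucuronidase Gusb rose by 0.85 and the arylsulfatase Arsb fell by 1.08. Whether they act on products of the members was not examined. Among the regulators Hnf4a fell by 1.62 and Ppara by 1.51, and Nfe2l2, which encodes NRF2, rose by 0.70. Between the aged groups 0 of the 45 genes were called by edgeR with all libraries, as were 0.0% of all genes. Without IgG2a replicate 1, 24 were higher with aPD1ab and 6 lower, against 17.1% and 13.2% of all genes. The 6, a share close to that of all genes, were Hpgds, Gusb, Abcc1, Abcc3, Bach1 and Ahr. In aPD1ab-injected against young mice only Slc7a11 (1.64), Slc35b2 (0.49) and Mgst3 (0.65) were higher and Ahr (-0.72) and Ppara (-0.73) lower. Of all genes, 12.4% were higher and 9.97% lower in that comparison, larger shares than in the list.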

How the data were processed

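Podocyte-fraction RNA of single mice was sequenced (Illumina TruSeq libraries), and the table the authors deposited holds raw whole-number counts of reads per gene, not normalized, for mm10 (GRCm38). Per the labels they used HISAT2 and featureCounts; versions, strand and the treatment of reads overlapping several genes are not given in the sources used here. Columns were grouped by animal number as the study's expression figure lists them, 2 columns were not used, and replicate numbers only name columns. Symbols, coordinates and exon lengths came from GENCODE M21 (45143 of 46078 genes matched). CPM used TMM factors. Each comparison was fitted on its own libraries with edgeR 4.0.16 (R 4.3.3; filterByExpr, TMM, robust quasi-likelihood test), p-values adjusted by Benjamini and Hochberg over every gene tested and calls at 0.05. Alternatives used DESeq2 1.42.0, limma 3.58.1 (voomWithQualityWeights), other scalings, no filter, a joint fit and each library left out. The code was tested on simulated counts. Named genes were the up to 4 highest of each subfamily with a mean of at least 1 CPM. Ratios divided a gene's CPM by the summed CPM of 14 proximal tubule markers. The members, marker lists and pathway list were chosen with earlier results of these data known. Sampling error is set by depth (19912969 to 32717100 counts per library), and limits of 3 counts cover counting error only. 1 gene of the pathway list and the motif results tied to it are not reported here.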

Additional observations from a re-analysis of the deposited data

Results flagged for a closer look

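In groups of 4 or 5 libraries, the highest or lowest library was set against the rest of its group by Dixon's ratio. Of 84 groups of named genes, 21 had such a library, where chance gives about 1 in 20, and these are not independent, since 13 of them are 1 library and 5 another.

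IgG2a replicate 1 was the highest of its group for 6 glutathione-conjugating genes of the alpha, kappa, mu and zeta classes: Gsta3 was at 38.2 CPM against 9.97 to 14.1 in the others, Gsta4 at 52.8 against 17.8 to 23.6, Gstk1 at 36.2 against 17.0 to 18.1, Gstm1 at 112 against 62.7 to 70.9, Gstm2 at 51.1 against 31.96 to 32.5, and Gstz1 at 68.8 against 20.1 to 25.8. Of the theta class, Gstt1 was at 118 CPM against 56.0 to 59.5 and Gstt3 at 37.6 against 19.7 to 22.3. Of the SULTs, Sult1c2 was at 59.5 CPM against 20.4 to 25.4 and Sult1d1 at 139.9 against 26.6 to 37.8. Of the UGTs, Ugt1a7c was at 76.4 CPM against 22.1 to 30.7, Ugt2b37 at 19.7 against 2.90 to 5.27, and Ugt3a1 at 54.1 against 8.05 to 15.6. The proximal tubule marker sum of this library was 7514 CPM against 1343 to 2229, and its part in these values was not tested.

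aPD1ab replicate 2 was the highest of its group for 5 UGTs. Ugt3a2 was at 734 CPM against 231 to 284, Ugt2b38 at 438 against 151 to 178, Ugt3a1 at 163 against 20.9 to 39.5, Ugt2b37 at 45.6 against 9.21 to 13.7, and Ugt2b5 at 7.40 against 2.10 to 2.47. The proximal tubule marker sum of this library was 21948 CPM against 7700.4 to 8699, and its part was not tested.

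Single genes stood apart in 3 other cases. Gstt3 was at 45.1 CPM in aPD1ab replicate 3 against 33.03 to 34.9, Gsto2 at 0.553 CPM in IgG2a replicate 4 against 1.29 to 1.31, and Gstt2 at 36.2 CPM in young replicate 4 against 56.0 to 61.6.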

How the results depend on the processing

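With 4 or 5 libraries a group, and 1 IgG2a and 1 aPD1ab library unlike the rest, counts of members called depended on the tool and the libraries. The cause was not tested. Percentages in brackets are the shares of all genes called in the same fit and direction, which moved as well. For counts without overlap by library totals no such share was computed. IgG2a vs young (9 lower, 1 higher): lower members were 5 with no filter (4.09%) or in a joint fit of all 3 groups (7.62%). They were 20 with limma voom (22.2%) and 22 with DESeq2 without IgG2a replicate 1 (chosen after seeing the data, 24.2%). With 1 library left out they were 0 to 22 (1.80% to 23.5%). Higher members were 2 with DESeq2 (14.3%) or limma (24.3%), and 0 with library totals (2.07%) or past 2-fold (3.89%). They were 1 to 2 with 1 library left out (1.60% to 22.1%), and 0 were higher without overlap by library totals. aPD1ab vs IgG2a (0): 18 were higher with DESeq2 (8.95%), 24 with limma (20.9%) and 16 in the joint fit (11.4%). DESeq2 without IgG2a replicate 1 gave 27 higher (20.2%) and 1 lower (17.7%). With 1 library left out 0 to 24 were higher (0.0% to 17.1%) and 0 to 0 lower (0.0% to 13.2%). By library totals 5 were higher without overlap. aPD1ab vs young (13 higher, 0 lower): 6 higher past 2-fold, 4 lower with limma, and 8 to 18 higher and 0 to 6 lower with 1 library left out.

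Values that turned sign, none of them called in both directions, are log2 fold changes. IgG2a vs young, library totals (median of all genes -0.38): Gsta4 -0.31, Gstm4 -0.33, Gstt1 -0.31, Gstt3 -0.36, Sult1a1 -0.37; limma: Gsta4 -0.35, Gstt1 -0.15, Gstt3 -0.19; joint fit: Gsta4 -0.023, Gstt1 -0.0064, Gstt3 -0.0405, Sult1a1 -0.0200; no filter: Gstt3 -0.016; 1 library left out: Gsta4 -0.46 to 0.19, Gsto2 -0.26 to 0.017, Gstp2 -0.35 to 0.019, Gstt1 -0.28 to 0.15, Gstt3 -0.25 to 0.11, Sult1a1 -0.083 to 0.32. aPD1ab vs IgG2a, library totals (median 0.24): Gsto1 0.13, Sult2b1 0.19; 1 library left out: Gsto2 -0.18 to 0.46, Sult2b1 -0.45 to 0.21. aPD1ab vs young, library totals (median -0.11): Sult1d1 -0.012; limma: Sult1d1 -0.25; 1 library left out: Gstm2 -0.21 to 0.017, Gsto2 -0.38 to 0.26, Sult1d1 -0.41 to 0.37, Ugt2b34 -0.038 to 1.16, Ugt3a1 -1.30 to 0.0067. No paired analysis was possible because the columns of the count table carry no replicate number from the labels. Members under 3 counts in every library are below what this depth can compare.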
